A study of Mus musculus with 24 samples.

Results

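Tle4 CThPNs, the layer 6 corticothalamic projection neurons of the cortex, were compared between P21 and P48 by the open chromatin sites listed at each age. The members were the peaks of the 2 Tle4 lists of these ages on chromosomes 1 to 19 and X, which numbered 18374 of the 292908 peaks of the 12 lists of the series on those chromosomes. The P21 list held 6538 such peaks and the P48 list 11836, and together they covered 12889 merged regions. A P21 peak that overlapped no P48 peak by 1 bp was called lost, a P48 peak that overlapped no P21 peak was called gained, and the remaining peaks were called kept.

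The data were ATAC-seq peaks from neurons of the somatosensory and motor cortex of mice labelled C57BL/6, kept on a mixed background per the methods, of the genotype Tle4-2A-CreERT2:Ai14. Pregnant dams received 4-Hydroxytamoxifen late in gestation, so that Cre under the Tle4 locus switched on tdTomato in Tle4-lineage cells of the embryos, and red cells were sorted at P21 or at P48. Both ages shared genotype, treatment and tissue, and had 2 replicates each, every one a pool of animals of both sexes. The authors deposited 1 list per age, made from the pooled replicates, hence the spread between replicates is unknown, and the lists hold no read counts. Shares of peaks carry a 95% Wilson interval, which covers counting error only, and no p was computed.

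In the adult cortex, corticothalamic neurons of layer 6 send axons to the thalamus and shape its responses to sensory input. They are specified before birth under factors such as Tbr1, Fezf2 and Tle4, and later add the receptors, channels and synaptic proteins of mature neurons. In ATAC-seq a transposase cuts where DNA is not packed in nucleosomes, which marks active promoters and distal elements such as enhancers. Between weaning and young adulthood cortical circuits pass through and close periods of heightened plasticity.

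Sequences of the strongest peaks are shown first, to let the base composition of promoter and distal members be seen. Each was the peak with the highest rank of fold enrichment (the authors' ratio of reads over local background) in its set, on assembly NCBIM37, plus strand. The bases shown lie within 150 bases of the summit, outside annotated exons, and capitals mark every CpG dinucleotide, the site of DNA methylation. The kept promoter peak belonged to 5730590G19Rik (chr7:86804881-86805081), the lost one to Pacsin2 (chr15:83295037-83295248) and the gained one to Mul1 (chr4:137990283-137990582). The lost peak outside promoters lay 27472 bp from the TSS of Cldn18 (chr9:99645008-99645307).
kept promoter, 5730590G19Rik: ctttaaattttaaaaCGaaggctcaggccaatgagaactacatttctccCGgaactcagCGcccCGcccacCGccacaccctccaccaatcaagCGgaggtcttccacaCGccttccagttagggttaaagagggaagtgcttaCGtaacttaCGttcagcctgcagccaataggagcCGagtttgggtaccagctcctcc
lost promoter, Pacsin2: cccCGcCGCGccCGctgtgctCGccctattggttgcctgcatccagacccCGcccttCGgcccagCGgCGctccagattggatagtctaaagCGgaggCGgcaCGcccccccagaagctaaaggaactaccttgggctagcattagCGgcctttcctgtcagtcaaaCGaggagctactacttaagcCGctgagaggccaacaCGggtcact
gained promoter, Mul1: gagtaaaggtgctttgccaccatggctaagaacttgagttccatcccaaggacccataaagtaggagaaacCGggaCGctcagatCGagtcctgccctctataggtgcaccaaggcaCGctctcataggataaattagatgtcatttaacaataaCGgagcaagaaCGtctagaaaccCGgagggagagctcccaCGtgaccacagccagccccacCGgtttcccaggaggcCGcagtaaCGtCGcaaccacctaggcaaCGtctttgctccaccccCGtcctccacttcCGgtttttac
lost outside promoters, Cldn18: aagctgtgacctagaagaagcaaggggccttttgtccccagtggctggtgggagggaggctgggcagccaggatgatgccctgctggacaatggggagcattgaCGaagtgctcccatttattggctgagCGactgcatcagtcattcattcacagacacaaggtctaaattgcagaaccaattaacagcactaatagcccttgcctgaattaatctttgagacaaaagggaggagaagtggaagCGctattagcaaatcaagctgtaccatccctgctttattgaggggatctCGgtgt
The 3 promoter stretches held 10 CpGs in 201 bases, 16 in 212 and 15 in 300, against 4 in 300 for the peak near Cldn18. CpGs were thus dense in the kept, the lost and the gained promoter stretch and sparse in the distal one. Not every strong distal peak was sparse in CpGs. The kept peak outside promoters with the highest rank, nearest to Pxmp3, had a ratio of observed to expected CpGs of 0.940 in its 300-base window. That ratio was 0.221 for the window near Cldn18.

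The 2 gained peaks outside promoters with the highest rank each held the AP-1 motif (TGANTCA, read on both strands), which is bound by Fos and Jun dimers. It was in 23.2% of all windows outside promoters, and the windows of the next gained peaks by rank, near Vegfa and Mmp25, held no match. In their 300-base windows around the summit, capitals mark that match. The first lay 11488 bp from the TSS of Pigk, a subunit of the GPI-anchor transamidase (chr3:152365426-152365725), and the second in an intron of Hmcn2, an extracellular matrix protein (chr2:31298028-31298327).
gained outside promoters, Pigk: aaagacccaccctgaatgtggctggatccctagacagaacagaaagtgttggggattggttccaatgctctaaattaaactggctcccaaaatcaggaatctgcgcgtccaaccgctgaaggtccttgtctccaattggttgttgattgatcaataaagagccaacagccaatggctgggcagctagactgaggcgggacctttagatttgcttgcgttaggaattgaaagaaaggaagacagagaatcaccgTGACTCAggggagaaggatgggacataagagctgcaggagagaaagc
gained outside promoters, Hmcn2: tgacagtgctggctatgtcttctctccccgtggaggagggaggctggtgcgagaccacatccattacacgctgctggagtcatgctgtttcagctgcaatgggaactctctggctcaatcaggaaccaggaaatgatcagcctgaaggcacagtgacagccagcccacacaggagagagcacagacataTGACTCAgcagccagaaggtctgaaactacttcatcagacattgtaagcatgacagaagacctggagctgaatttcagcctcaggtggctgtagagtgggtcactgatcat
In both, the match read TGACTCA, at bases 254 to 260 near Pigk and 190 to 196 in Hmcn2. The Pigk peak was also in all 4 earlier Tle4 lists (E18.5 to P7) and in none of the 6 Cux2 lists, whereas the Hmcn2 peak was in no earlier Tle4 list and in both late Cux2 lists.

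Most of the P21 list persisted, and the P48 list contained a larger number of additional sites. Of the 6538 P21 peaks, 5484 were kept (83.9%, 83.0 to 84.8) and 1054 were lost (16.1%, 15.2 to 17.0). Of the 11836 P48 peaks, 5471 were kept (46.2%, 45.3 to 47.1) and 6365 were gained (53.8%, 52.9 to 54.7). Gained peaks were found on every chromosome, from 48.8% of the P48 peaks on chromosome 3 to 60.1% on chromosome 9, and lost peaks from 11.7% of the P21 peaks on chromosome 8 to 20.0% on chromosome 4.

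Kept sites were compared by their strength at both ages. Over the 5485 overlapping pairs of a P21 and a P48 peak, fold enrichment correlated with a Spearman rho of 0.74 and, on the log2 scale, a Pearson r of 0.78, as a description across sites that share sequence and mappability. From P21 to P48 the percentile rank of fold enrichment changed by a median of 1.53 points in the 2952 promoter pairs and 7.86 points in the other 2533. Ranks were taken within each list, so they depend on the peaks added to the longer P48 list and do not measure a change in signal. The median fold enrichment of kept peaks was 10.96 in the P21 list and 9.99 in the P48 list. The summits of a pair lay a median of 28 bp apart. P48 peaks of a pair were a median of 1.29 times wider, and 88.2% of pairs were wider at P48. Few changed peaks had a close neighbour at the other age: 4 of 1054 lost peaks lay within 500 bp of a P48 peak and 22 of 6365 gained peaks within 500 bp of a P21 peak.

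The length of the lists set much of these counts. The P21 list was the shortest of the 12 lists of the series and the P48 list was 1.81 times as long, although the lowest −log10 p of a listed peak was 21.1 at P21 and 19.8 at P48. When the P48 list was cut to its 6538 strongest peaks by −log10 p, 2185 P21 peaks were lost and 2196 P48 peaks gained. Cut by fold enrichment instead, the numbers were 2999 and 3006. At equal length both numbers are bound to be close, so the excess of gained over lost peaks depends on the length of the lists. At one common −log10 p (21.1) in both lists, 1329 peaks were lost and 4774 gained.

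**Figure D1:**
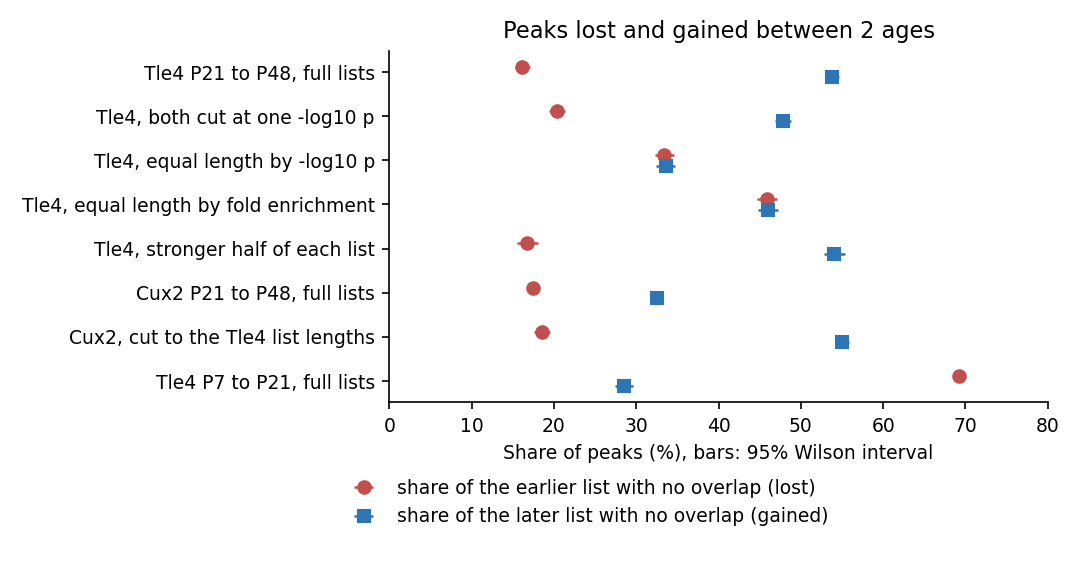
Share of the earlier list without an overlapping peak in the later list (red circles, lost) and of the later list without one in the earlier list (blue squares, gained), in %, with 95% Wilson intervals; each row is a pair of lists or a way of cutting them. For Tle4 CThPNs the points at 16.1% and 53.8% came together at equal length by −log10 p, and the Cux2 lists cut to the Tle4 lengths gave 18.51% and 55.0%.

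Weak peaks made up most of both changed sets. In the P21 list, the share kept rose from 61.6% in the weakest decile by −log10 p to 99.8% in the strongest, where 1 of 654 peaks was lost. In the P48 list, it rose from 12.3% to 98.1%, and 22 of 1184 peaks of the strongest decile were gained. The median lost peak stood at percentile 22.7 of its list by −log10 p and the median gained peak at percentile 33.0, against 56.4 for kept peaks at P21 and 73.5 at P48. Whether an accessible site of low signal fell under the authors' filter at P21 or was closed at that age cannot be told apart in these lists.

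The sets differed in where they lay. A promoter peak was one that reached within 1 kb of an annotated TSS. Promoters held 53.8% (52.5 to 55.1) of the peaks kept at P21, 33.5% (30.7 to 36.4) of those lost and 24.4% (23.4 to 25.5) of those gained. Kept peaks exceeded lost peaks by 20.3 percentage points (Newcombe 95% interval 17.1 to 23.4) and, in the P48 list, exceeded gained peaks by 29.6 points (27.9 to 31.2). Lost peaks in turn exceeded gained peaks by 9.05 points (6.06 to 12.1). Introns held 20.2% of kept, 31.3% of lost and 34.0% of gained peaks, and intergenic sequence 24.6%, 33.7% and 39.2%. The median distance from the summit to the nearest TSS was 370.5 bp for peaks kept at P21, 10415 bp for lost peaks and 13245 bp for gained peaks. Exons outside promoters held few peaks of any set, from 1.40% of kept to 2.36% of gained.

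**Figure D2:**
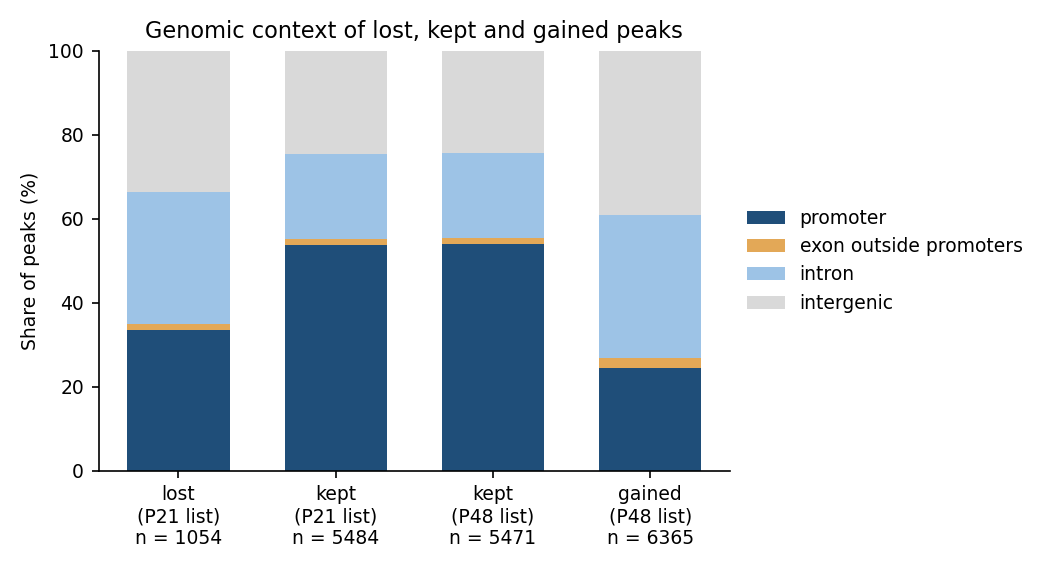
Share of peaks (%, stacked bars) in promoters, in exons outside promoters, in introns and in intergenic sequence, for lost, kept and gained peaks, with the number of peaks under each bar. Promoters took 53.8% and 54.0% of the kept peaks of the 2 lists, 33.5% of the lost and 24.4% of the gained.

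Peaks of like strength were also compared. Deciles that held at least 20 peaks of each set were used. In the P21 list, the promoter share of kept peaks exceeded that of lost peaks in 7 of 8 deciles. The mean difference was 6.44 points, with a range of -4.10 to 12.8 points, against 20.3 points over the whole list. In the P48 list, the promoter share of kept peaks exceeded that of gained peaks in 10 of 10 deciles. There the mean difference was 23.3 points, with a range of 13.1 to 60.1 points. In the decile of the P48 list with the strongest peaks, 78.3% of the 1162 kept peaks and 18.2% of the 22 gained peaks were at promoters.

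**Figure D3:**
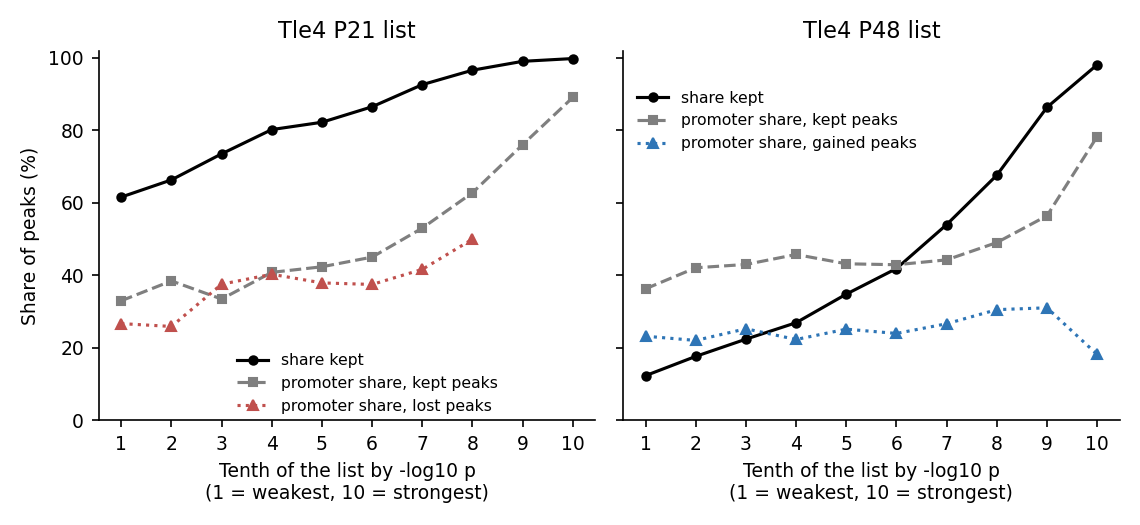
Deciles of the P21 list (left) and of the P48 list (right) by −log10 p, from the weakest (1) to the strongest (10), against the share of peaks (%): share kept (black circles), promoter share of kept peaks (grey squares) and of lost or gained peaks (coloured triangles, where at least 20 peaks). The share kept climbed in both lists, and in the P48 list the grey line lay above the blue one in every decile.

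At the level of genes, promoter peaks were present in both lists at 3267 of 22208 protein-coding genes (14.7%), in the P48 list alone at 1567 (7.06%) and in the P21 list alone at 349 (1.57%). The 3267 genes with a promoter peak at both ages had one in all 4 earlier Tle4 lists in 93.1% of cases (92.2 to 94.0). Genes with a promoter peak at P48 but not P21 had one in at least 1 earlier Tle4 list in 91.6% of cases (90.1 to 92.9), in all 4 in 60.2% (57.8 to 62.6) and in the Cux2 P48 list in 94.6% (93.4 to 95.6). The 349 genes of the P21 list alone were listed in at least 1 earlier Tle4 list in 94.0% of cases (91.0 to 96.0).

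Among the highest-ranked lost promoters, Pacsin2, which bends membranes in endocytosis, had a fold enrichment of 15.6 at P21 (percentile 94.2 of the list), and Impdh2, an enzyme of guanine nucleotide synthesis, 14.7 (percentile 90.7). The promoters of 2010317E24Rik and Plcl1, a phospholipase C-like protein, stood at 14.8 and 14.6. These 4 peaks were in all 10 other lists. Among gained ones, the promoter of Mul1, a mitochondrial ubiquitin ligase, had a fold enrichment of 15.4 at P48 (percentile 98.1), that of Alg10b, an enzyme of N-glycosylation, 14.5, that of Rufy1, an endosomal protein, 14.0, and that of 4930529M08Rik 13.9. The Mul1 peak was missing from the Cux2 P21 list as well, and was in the other 9 lists. The remaining 3 were in all 10.

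Kept promoters reached far higher values. The promoter of Inpp5f, an inositol phosphatase, had a fold enrichment of 23.5 at P21 and 20.4 at P48, and that of 5730590G19Rik 24.4 and 23.9. The second-ranked kept promoter, at Gm10222 (25.9 at P21), shared exact 31-base stretches with the mitochondrial chromosome, as did 1 other kept peak in each list. No lost or gained peak did.

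Outside promoters, the highest-ranked changed sites had mixed histories. Among lost ones, a peak 27472 bp from Cldn18 (fold enrichment 14.9 at P21) was in no other list of the series, a peak 36176 bp from Fbln2, an extracellular matrix protein (14.8), was in 9 other lists, a peak 231992 bp from Bmp2 (14.8) in 8 and a peak 132543 bp from Agbl1 (14.7) in 9. Among gained ones, the Pigk and Hmcn2 peaks printed above stood at 16.7 and 16.4. A peak 116926 bp from Vegfa, the vascular growth factor, stood at 16.3 and was in all 4 earlier Tle4 lists and 4 Cux2 lists. A peak within Mmp25, a membrane metalloproteinase, stood at 15.5 and was in 7 other lists. The kept sites nearest to Pxmp3, Gm6712, Pdia4 and Samd9l, at 20966 to 284465 bp, had fold enrichments of 20.0 to 26.5 at P21 and were in 6 to 10 of the other lists. Only matches to the mitochondrial chromosome were searched for. Whether these kept sites lie in sequence repeated elsewhere in the genome was not examined, so their high values may not reflect single sites.

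Of the gained peaks, 5114 lay within 100 kb of the nearest protein-coding TSS and were assigned to that gene, as were 859 of the lost peaks. Most genes had 1 such peak: 4194 genes had at least 1 gained peak, 158 had at least 3 and 5 had at least 5. Only 1 gene had 3 lost peaks, and 31 had at least 2.

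Phactr1, a regulator of actin and protein phosphatase 1, had the most gained peaks. Its 6 gained peaks comprised a promoter peak, 3 intronic and 2 intergenic peaks, with fold enrichments of 7.21 to 8.12, beside 1 kept peak. Dlg2, which encodes the postsynaptic scaffold PSD-93, had 5 gained peaks, 2 kept and 1 lost. Pde4b, a cAMP phosphodiesterase, had 5 gained and 1 kept, Ipcef1, which binds cytohesin exchange factors, had 5 gained and none kept, and Tns3, a focal adhesion protein, had 5 gained and 1 kept. In all 30 genes had at least 4, and 1810013D10Rik came first by symbol among those tied at 4. These 6 genes had 8 to 33 peaks in the Cux2 P21 list and 9 to 39 in the Cux2 P48 list. Most of them were long: Dlg2 spans 1945 kb and Pde4b 520 kb, where the median protein-coding gene spans 15.5 kb.

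Snd1, an RNA-binding nuclease-domain protein, had the most lost peaks, namely 3, with fold enrichments of 8.05 to 8.67 at P21, beside 4 kept peaks and 1 gained. The next genes had 2 lost peaks each. Acot11, an acyl-CoA thioesterase, also had 1 gained and 1 kept peak, and Agbl4, which shortens polyglutamate chains on tubulin, had 2 gained, 1 of them at its promoter. Camk1g, a calcium/calmodulin-dependent kinase, had 1 gained and 1 kept, while 1700084C01Rik and D430042O09Rik had no gained peak.

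The 10 other lists, which were not used to form the sets, held kept peaks most often, and lost peaks more often than gained ones except outside promoters in the Cux2 P48 list (69.2% of lost and 70.5% of gained). At promoters, 97.4% (96.8 to 97.9) of kept, 90.7% (87.2 to 93.3) of lost and 83.5% (81.6 to 85.3) of gained peaks were in at least 1 earlier Tle4 list. Outside promoters the shares were 62.7% (60.8 to 64.6), 49.9% (46.2 to 53.6) and 41.9% (40.5 to 43.3). Over all gained peaks, 52.1% (50.8 to 53.3) had been listed in Tle4 CThPNs before P21, 25.9% (24.9 to 27.0) in all 4 earlier lists. Thus 1651 sites were listed at every Tle4 age except P21. Conversely, 63.6% (60.6 to 66.4) of lost peaks had an earlier Tle4 peak, and 392 of them were listed at every Tle4 age except P48.

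The Cux2 CPN lists of the same 2 ages held most of the changed sites. The Cux2 P21 list contained 64.4% (63.3 to 65.6) of the Tle4 peaks gained at P48, and the Cux2 P48 list 75.7% (74.7 to 76.8). For the lost peaks the shares were 68.6% (65.7 to 71.3) and 77.2% (74.6 to 79.7), so that a site lost from the Tle4 list was more often listed in Cux2 CPNs at P48 than at P21. Kept peaks were in these lists in 92.0% (91.2 to 92.7) and 94.2% (93.6 to 94.8) of cases. Sites listed in Cux2 P48 and not Cux2 P21 made up 14.9% (14.0 to 15.8) of gained and 12.7% (10.8 to 14.9) of lost peaks, and these intervals overlap. The Cux2 lists are longer, with 37426 and 45642 peaks, which raises every such share.

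Sites without any counterpart were few. Of the gained peaks, 781 (12.3%, 11.5 to 13.1) were in no other list of the series, 730 of them outside promoters, and 9.68% (8.04 to 11.6) of the lost peaks were. Among kept peaks the number was 110 (2.01%, 1.67 to 2.41). At the other end, 1031 gained peaks (16.2%), 247 lost peaks (23.4%) and 3169 kept peaks (57.8%) were in all 10 other lists.

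**Figure D4:**
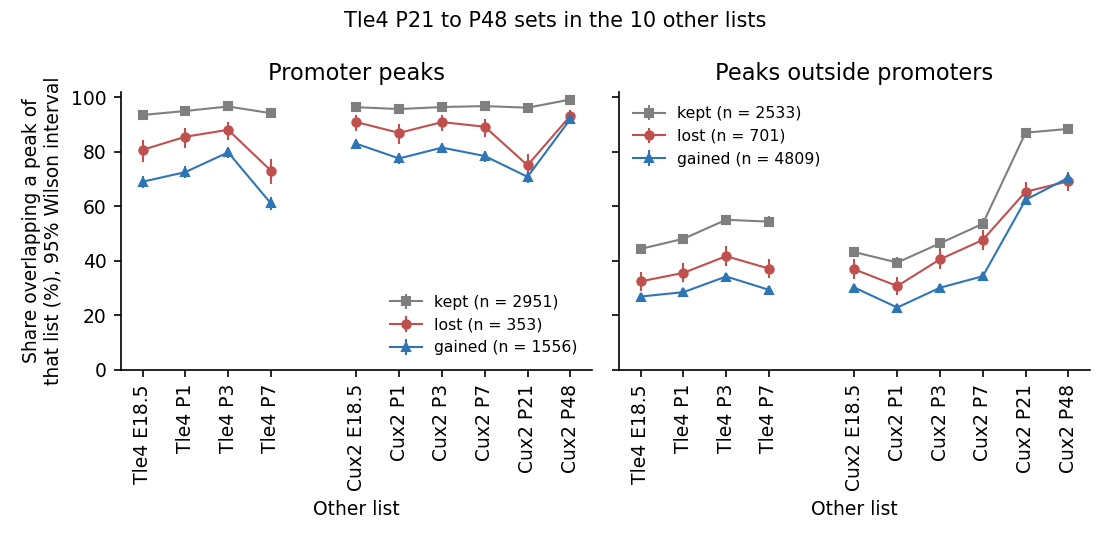
Share of kept (grey squares), lost (red circles) and gained (blue triangles) peaks that overlapped a peak of each of the 10 other lists (%, 95% Wilson intervals), at promoters (left) and outside them (right). Kept peaks lay highest in every list of both panels, and outside promoters the shares of all sets were highest in the 2 late Cux2 lists (62.4% to 88.4%).

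Markers of corticothalamic neurons were used to check the label. Tbr1, a T-box factor of deep-layer identity, had a promoter peak in both lists, with a fold enrichment of 7.59 at P21 and 4.76 at P48, and in neither late Cux2 list. This peak was in 6 of the 10 other lists, early Cux2 lists among them. Tle4, the gene that drives the Cre, had a kept promoter peak (10.5 at P21 and 8.73 at P48), which was in all 10 other lists. Tle4 had also 2 lost intergenic peaks downstream, at chr19:14496041-14496757 and chr19:14510182-14510917, both listed in the 4 earlier Tle4 lists and in neither late Cux2 list. The first was in no Cux2 list, whereas the second was in 8 of the 10 other lists, early Cux2 lists among them. Nfia had a promoter peak in the P48 list alone, and the other 11 of the 14 marker genes had no promoter peak at either age. In the late Cux2 lists, which are longer, 3 of these genes had a promoter peak at each age (Tle4, Nfia and Rprm, the last of which had none in either Tle4 list). All 14 genes together had 40 and 41 peaks in the Cux2 P21 and P48 lists, against 8 and 18 in the Tle4 lists. The 10 upper-layer markers had 35 and 49 peaks in the Cux2 lists, against 3 and 3 in the Tle4 lists. These lists differ in length, with 37426 and 45642 peaks against 6538 and 11836. Raw numbers thus do not show whether the corticothalamic markers set the Tle4 lists apart, which was not tested.

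Of those 14 genes, 9 were nearest to at least 1 gained peak outside promoters, where 13.2% of all protein-coding genes were, and 1 to a lost one, where 2.2% of all genes were. Their median span was 122 kb against 15.5 kb over all genes, and 10 of them were nearest to any P48 peak outside promoters. Of these peaks 73.3% (48.05 to 89.1) were gained, an interval that includes the 65.3% over all protein-coding genes. Foxp2, a forkhead factor of layer 6, had 2 gained intronic peaks (fold enrichments 8.72 and 7.63). Neither was in an earlier Tle4 list, and the first was in no other list. Fezf2, which specifies subcerebral and deep-layer fates, had 2 gained peaks at 33334 and 91030 bp (7.13 and 6.65), both in all 4 earlier Tle4 lists. Rprm, a marker of layer 6, had the gained peak with the highest fold enrichment among these markers, 11.7 at P48 (percentile 85.1), 52106 bp from its TSS and in no other list, and 1 kept peak. Sox5, a regulator of deep-layer neuron migration, had a kept intronic peak found in no other list and a gained one.

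A single gained peak each lay near Bcl11b (CTIP2), Ntsr1, the neurotensin receptor of layer 6, Zfpm2, Nfib and Hs3st4, with fold enrichments of 6.29 to 9.37 at P48. Syt6 had 1 kept peak, Nfib a kept peak of 13.4 at P21, and Crym no peak at either age. Together the 14 genes had 2 lost, 6 kept and 12 gained peaks. Of the 12 gained peaks, 5 were in the Cux2 P48 list, which held 75.7% of all gained peaks. Another 5 were in no other list at all, as were 12.3% of all gained peaks.

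Few peaks lay at markers of other cells. Over 53 matched markers of interneurons, astrocytes, the oligodendrocyte lineage, microglia and vascular cells, 1 gene had a promoter peak. This peak, at the astrocyte gene Aldh1l1, was lost and in no other list, while both late Cux2 lists held another promoter peak of the gene. Over all protein-coding genes, 14.7% had a promoter peak in both lists, 7.06% in the P48 list alone and 1.57% in the P21 list alone. Of all these genes, 13.2% were nearest to a gained peak outside promoters and 2.2% to a lost one. Sox9 had 1 lost peak in the same list of astrocyte markers. The myelin gene Mbp had 2 gained intronic peaks, Dlx2 1 gained peak, and the vascular genes Kdr and Cdh5 1 each. These lists also had 4 kept peaks, 2 of them at microglial markers. Among 10 markers of excitatory neurons 4 peaks were gained and 2 kept, and among 5 subplate markers 1 was gained and 1 kept. Promoter peaks were also few at the excitatory markers, with 1 gene in both lists and 1 in the P48 list alone. Among 10 upper-layer markers, Rorb and Lmo4 had a promoter peak at P21 alone, both also listed in the 2 late Cux2 lists, and Cux1 and Lhx2 had 1 gained peak each. Their part in the results was not tested.

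Genes of mature neuronal function were described by lists chosen for the tissue. In 5 lists of presynaptic release, glutamate receptor, GABA receptor, sodium and calcium channel and potassium channel genes (101 genes), 45 genes were nearest to a gained peak outside promoters (44.6%, against 13.2% of all genes) and 51 to any P48 peak outside promoters. Of the 86 P48 peaks outside promoters at these genes, 68 were gained (79.1%, 69.3 to 86.3), where the share over all protein-coding genes was 65.3% (64.0 to 66.5). Taken singly, the GABA receptor list lay above that share (92.3%, 66.7 to 98.6), and the intervals of the other lists included it. The 101 genes were long, with a median span of 135 kb against 15.5 kb. A long gene holds more sequence nearest to its own TSSs, and the part of gene length in the share of genes was not tested.

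Over all protein-coding genes, 51.4% of assigned P48 peaks were gained and 15.0% of assigned P21 peaks lost, and the peak counts of the lists that follow stand beside these shares.

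Among glutamate receptors, Gria1, an AMPA receptor subunit, had 3 gained intronic peaks and no kept peak, and Grik4, a kainate receptor subunit, 3 gained and 1 kept. Grik3 had 2 gained. Grin2a, the NMDA receptor subunit that increases after birth, had a promoter peak at both ages, 2 kept and 2 gained peaks. GABA receptor genes had 12 gained peaks, 2 kept and 1 lost. Gabra5, Gabrb2 and Gabbr2 had 2 gained each, and the promoter peak of Gabbr1 was in the P21 list alone.

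Potassium channel genes had 25 gained, 9 kept and 2 lost peaks, with 3 gained at Kcnma1, the large-conductance calcium-activated channel, and 3 at Kcnn2, a small-conductance one. Kcnq3 and Kcnd3 had 2 gained and 1 lost each. Sodium and calcium channel genes had 14 gained, 4 kept and 1 lost. Cacna1c, Cacnb2 and Scn3a had 2 gained each, while the promoter peak of Cacnb4 was in the P21 list alone. At presynaptic genes 11 peaks were gained, 6 kept and 1 lost, and Syt1, the calcium sensor of release, had 2 gained and 2 kept.

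Activity-regulated genes had promoter peaks in both lists at 5 of 19 genes (26.3%, against 14.7% of all genes) and in the P48 list alone at 4 (21.1%, against 7.06%), with none in the P21 list alone. Fos had 3 gained peaks, at its promoter, 11199 bp and 37619 bp away. It also had 2 kept peaks, among them another promoter peak, so its promoter was listed at both ages. Fosb had 2 gained and 2 kept, and Arc 1 gained. Btg2 had 1 gained and 1 lost. Of the 15 gained peaks at the 19 genes, 12 had been listed in an earlier Tle4 list, as had 52.1% of all gained peaks. In the Cux2 P48 list were 13 of the 15, and 75.7% of all gained peaks.

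Axon guidance genes, with a median span of 299 kb, had 18 gained, 6 kept and 4 lost peaks. The lost share of their 10 P21 peaks was 40.0% (16.8 to 68.7), against 15.0% over all genes. Slit3, a secreted repellent, had 2 lost and 4 gained peaks, and Efna5, an ephrin ligand, 3 gained and 2 kept. Among 11 genes of perineuronal nets and plasticity, the matrix that surrounds mature neurons, 7 of 8 P48 peaks were gained (87.5%, 52.9 to 97.8, against 51.4% over all genes), 3 of them at Tnr (tenascin-R). Hapln1, Ncan and Lynx1 had 1 each. Outside promoters 6 of 6 P48 peaks of this list were gained (100%, 61.0 to 100), an interval that includes the 65.3% over all protein-coding genes. Clock genes had 10 gained peaks, 5 kept and none lost, with 2 gained at Per2, Npas2 and Hlf and 1 at Arntl.

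Immature-neuron genes had 6 gained and 5 kept peaks, 3 of the gained ones at Tubb3. Of 7 matched cytoskeleton genes of mature neurons, Ank2 and Ank3, the ankyrins of axons and their initial segments, had 4 gained peaks each, and Ina and Mapt 1 each. DNA methylation genes were mostly kept, with 9 kept, 4 gained and 1 lost peak, and a promoter peak in both lists at 6 of 11 genes. The lost one lay in an intron of Dnmt3a, the de novo methyltransferase, and was in no other list. Of 14 housekeeping genes, 7 had a promoter peak in both lists (50.0%, against 14.7% of all genes), 1 (Sdha) in the P48 list alone and none in the P21 list alone.

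**Figure D5:**
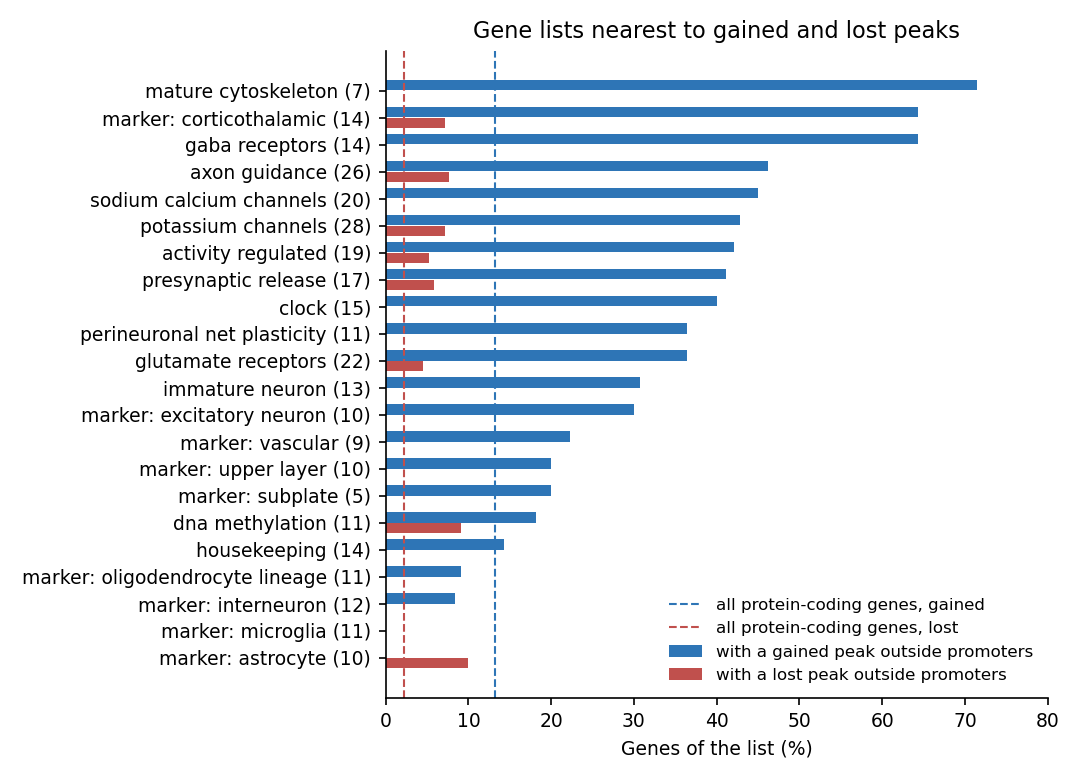
Genes of each list (%, with the number of matched genes in brackets) that were nearest to at least 1 gained (blue) or lost (red) peak outside promoters within 100 kb; dashed lines give the same share over all protein-coding genes (13.2% and 2.2%). Corticothalamic markers and the lists of receptors, channels and cytoskeleton of mature neurons reached 36.4% to 71.4% on the gained side. The axon guidance, activity-regulated, presynaptic, clock and perineuronal net lists reached 36.4% to 46.2%. Immature-neuron genes reached 30.8%, and excitatory, vascular, upper-layer, subplate, DNA methylation and housekeeping lists 14.3% to 30.0%. Interneuron and oligodendrocyte-lineage markers reached 8.33% and 9.09%. Markers of astrocytes and microglia stood at 0%, and the astrocyte list had no P48 peak outside promoters.

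In 300-base windows at the summit, the median GC content was 54.0% for peaks kept at P21, 50.0% for lost and 48.7% for gained peaks, and the median CpG observed/expected ratio was 0.530, 0.317 and 0.264. Within promoters the order differed: the median GC content was 63.3% for lost, 61.0% for kept and 59.0% for gained peaks, and the median ratio 0.814, 0.773 and 0.716. CpG-rich windows, with GC over 50% and a ratio over 0.6, made up 75.03% (73.4 to 76.6) of kept, 74.8% (70.0 to 79.0) of lost and 60.7% (58.2 to 63.1) of gained promoter peaks. Outside promoters the median ratios were 0.217, 0.216 and 0.213, and 4.34% (3.62 to 5.21), 2.28% (1.41 to 3.68) and 2.06% (1.69 to 2.50) of the windows were CpG-rich.

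The motifs searched on both strands were AP-1 (TGANTCA), CRE (TGACGTCA), EGR (GCGTGGGCG), MEF2 (CTATTTNTA), the NeuroD E-box (CAGATGG), T-box (AGGTGTGA), the POU octamer (ATGCAAAT), NBRE (AAAGGTCA), the CTCF core (AGGGGGCGC), NRF1 (CGCATGCGC), YY1 (AAGATGGCG), ETS (CCGGAAGT), SP/KLF (GGGGCGGGG), SOX (AACAATGG) and the RFX site (GTTGCCATG). No CRE match is also an AP-1 match, and a match describes letters, not binding.

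Outside promoters, AP-1 was the most frequent. It was in 24.7% (23.0 to 26.4) of kept, 22.3% (21.2 to 23.5) of gained and 19.1% (16.4 to 22.2) of lost windows, beside 23.2% over both lists, and the difference from kept windows was -5.56 points (-8.79 to -2.07) for lost and -2.31 points (-4.38 to -0.27) for gained ones. The POU octamer stood at 4.71% (3.37 to 6.54) of lost, 2.57% (2.02 to 3.26) of kept and 1.75% (1.41 to 2.16) of gained windows, beside 2.31% over both lists. The RFX site stood at 2.66% of windows kept at P48 and 1.497% of gained windows, beside 2.12% over both lists. For the NeuroD E-box, the difference between gained and kept windows in the P48 list was 1.55 points (-0.14 to 3.19), an interval that includes 0. For NBRE it was 0.32 points (0.04 to 0.56), with matches in 21 of 4809 gained and 3 of 2516 kept windows. At promoters, SP/KLF matches were in 26.3% (22.0 to 31.2) of lost, 22.7% (21.3 to 24.3) of kept and 16.3% (14.6 to 18.2) of gained windows, beside 21.5% over both lists.

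The same split in Cux2 CPNs, from mice of another Cre line, gave a similar share of lost peaks and another pattern at promoters. From P21 to P48, 17.4% (17.0 to 17.8) of Cux2 peaks were lost and 32.5% (32.1 to 33.0) gained, with lists of 37426 and 45642 peaks. Cut to the lengths of the Tle4 lists, the strongest Cux2 peaks gave 18.51% (17.6 to 19.5) lost and 55.0% (54.1 to 55.9) gained, against 16.1% and 53.8% in Tle4 CThPNs. In these cut lists promoters held 31.2% of kept, 30.4% of gained and 6.61% of lost Cux2 peaks, where the Tle4 shares were 53.8%, 24.4% and 33.5%. Whether the lists of the 2 classes came out of a single processing run is not stated, and the naming of their peaks differs.

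From P7 to P21, the transition before, the Tle4 list shrank to 0.431 times its length, and the direction of the split was opposite. Of 15182 P7 peaks, 10511 (69.2%, 68.5 to 70.0) were lost by P21 and 1863 of the 6538 P21 peaks (28.5%, 27.4 to 29.6) were gained. Directly from P7 to P48, with a length ratio of 0.780, 8666 (57.1%, 56.3 to 57.9) were lost and 5329 (45.0%, 44.1 to 45.9) gained. Both transitions share a list with the comparison of P21 and P48.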

How the data were processed

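ATAC-seq was performed on sorted Tle4 CThPNs at P21 and P48, with 2 replicates per age. The authors aligned reads to NCBI37/mm9 with Bowtie2, discarded duplicate reads (Picard) and used MACS2 for peak calling, with a filter on the irreproducible discovery rate (IDR) across replicates. The deposited lists give each peak's fold enrichment (a ratio of signal over local background) and −log10 p, as computed by the authors, with no counts, so the precision that sequencing depth gives a peak could not be computed. The methods give 1 approximate depth for these libraries, not one per sample.

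Peaks on chromosomes 1 to 19 and X were intersected (minimum overlap 1 bp) and annotated with the NCBIM37 gene models. A promoter peak lay within 1 kb of any of 95414 annotated TSSs, and a peak was assigned to the nearest protein-coding gene within 100 kb. Sequence was read in 300-base windows at the summit. Shares have 95% Wilson intervals and differences Newcombe intervals, which cover counting error only, and floors for a count of 0 were not needed. With 1 list per age, no test between ages could be made, and p-values were not computed.

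The members, lists and comparisons were chosen with earlier results of these data known. Named were the 4 promoter and 4 other peaks with the highest rank of fold enrichment in each set (1 per gene), the 6 genes with the most gained and the 6 with the most lost peaks, every corticothalamic marker, and up to 4 members with the most changed peaks of each other list (22 lists, 313 entries, 4 not matched by symbol). 1 item that this rule names is not reported here. The alternatives were equal list lengths, a common −log10 p, the strongest 50%, other overlaps and other promoter definitions. Cutting the Cux2 lists, cutting each P48 list to its P21 length for its promoter share, and the comparison within deciles, were chosen after seeing the data. The overlap code was tested on simulated data. Python 3.11.15 with pandas 2.3.3, numpy 2.4.6, SciPy 1.17.1, pysam 0.24.0 and matplotlib 3.10.9 was used.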

Additional observations from a re-analysis of the deposited data

Results flagged for a closer look

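The promoter share of the list fell from P21 to P48 in Tle4 CThPNs and rose in Cux2 CPNs. The change was -12.4 percentage points in the Tle4 lists (50.5% to 38.1%) and 3.70 points in the Cux2 lists (18.53% to 22.2%). With each P48 list cut to the length of its P21 list, the changes were -3.61 points in Tle4 and 4.80 in Cux2 by −log10 p, and -9.96 and 3.27 by fold enrichment, so the size of the Tle4 change depended on list length. With 1 list per age and class, the difference between these changes was not tested.

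The Tle4 P48 list held 4 peaks on the mitochondrial chromosome and the P21 list 2, which were not used in any comparison.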

How the results depend on the processing

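Kept peaks had the highest promoter share in all 8 alternative settings, by 9.84 to 20.8 points over lost and 25.3 to 36.0 over gained peaks. None of these settings matched peaks by strength. Within deciles of the P21 list the mean excess over lost peaks was 6.44 points (range -4.10 to 12.8). The counts and shares themselves moved. At equal length by −log10 p, 2185 peaks were lost and 2196 gained, promoters held 38.0% of lost, 27.0% of gained and 56.8% of kept peaks, and 68.7% of lost and 55.6% of gained peaks had an earlier Tle4 peak. At equal length by fold enrichment, 2999 were lost, 3006 gained and 3539 kept, with promoter shares of 43.2%, 21.5% and 56.8%, and 72.5% of lost peaks had an earlier Tle4 peak. In the strongest 50% of each list, 546 were lost, 3201 gained and 2723 kept, with promoter shares of 50.0%, 31.6% and 67.7%, and earlier Tle4 peaks for 77.1% of lost and 62.8% of gained peaks. At a reciprocal overlap of 50%, 1603 were lost, promoters held 43.1% of lost and 27.3% of gained peaks, and 66.7% of lost peaks had an earlier Tle4 peak. At a common −log10 p, 53.6% of gained peaks had one. With promoters of 5 kb the shares were 42.3% of lost, 34.7% of gained and 60.01% of kept peaks, and with protein-coding TSSs alone 23.0% of gained and 52.1% of kept. Fewer peaks, a stricter overlap or another promoter definition are how these settings are built. Beyond that, the cause was not tested.

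No paired analysis was possible because each age has 1 list from pooled replicates. Leaving out a replicate was not run for the same reason. The planned share of soft-masked sequence was not run, since the reference used here is not soft-masked. Without read counts, the absence of a peak cannot be read as closed chromatin.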
